A study of Homo sapiens with 6 samples.

Results

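The Fc receptor-like (FCRL) genes and the long noncoding RNA LOC105371457, which lies among them, were followed in MM.1S cells after knockdown of PRKCN. The set comprised 7 of the 21850 listed genes, namely FCRL1, FCRL2, FCRL3, FCRL5, FCRLA, FCRLB and LOC105371457, and all 7 symbols were present in the count table. They were chosen by family name and position and because genes among them rose in these same libraries, so their differences between the groups are given as a description without a test. FCRL4 and FCRL6, the remaining genes of the family of 8, were also listed and are given for comparison. MM.1S is a human multiple myeloma cell line. The shNT group (3 libraries) was of wild-type genotype and infected with a scramble short hairpin, and the shPRKCN group (3 libraries), labelled as a PRKCN knockdown, was infected with a short hairpin against PRKCN, each collected on day 3 after lentiviral transduction. Both groups carried a lentiviral hairpin, and the labels do not say which of the study's PRKCN hairpins was used or whether the 3 libraries of a group came from separate cultures, so that p-values measure the spread between these libraries, which may be technical.

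Library totals ran from 35625564 to 37730003 counts. PRKCN, listed under its current symbol PRKD3, had 44913, 47712 and 45531 counts in shNT and 19979, 18253 and 19998 counts in shPRKCN cells. Of 15 plasma cell markers, all were listed and 14 had a mean over 1 CPM (the count scaled to the TMM-adjusted library size). Of these, 5 (IRF4, XBP1, TNFRSF17, TXNDC5 and SLAMF7) were called lower, against 10.6% of all genes tested. The summed levels of the plasma cell markers were 9578 to 9723 CPM in shNT and 8304 to 8414 CPM in shPRKCN libraries. Of 23 B cell markers 20 were listed and 10 had a mean over 1 CPM, with sums of 704 to 717 and 596 to 628 CPM, most of it POU2AF1, while PAX5, MS4A1 and CD22 had at most 8 counts in any library. The part of these shifts in the results was not tested. Of 14 T and NK cell markers 11 were listed, with summed levels of 11.8 to 12.9 CPM in shNT and 28.0 to 32.1 CPM in shPRKCN libraries, most of it CD3E (10.9 CPM in shNT and 28.8 CPM in shPRKCN cells), while CD3D, CD3G and KLRD1 had at most 1 count. Of 12 myeloid markers 9 were listed, with sums of 16.6 to 19.8 and 13.1 to 15.8 CPM, most of it CD68.

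FCRL proteins are relatives of the classical Fc receptors, which bind the constant part of antibodies. Most sit on the surface of B lineage cells, where tyrosine motifs in their tails recruit kinases or phosphatases and so raise or damp signals of the B cell receptor. FCRL1 is regarded as an activating member, FCRL2 and FCRL5 carry inhibitory motifs, and FCRL3 carries motifs of both kinds. FCRL5, a receptor for IgG, stays on plasma cells and myeloma cells and is a target of bispecific antibodies against myeloma. FCRLA and FCRLB lack a membrane anchor and remain inside the cell, and FCRL6 is known from cytotoxic T cells and NK cells and binds MHC class II.

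In the RefSeq annotation of GRCh38.p14, the build the submitters name, FCRL5, FCRL4, LOC105371457, FCRL3, FCRL2 and FCRL1 follow each other in this order on chromosome 1 from 157513377 to 157820120, a stretch of 307 kb, and all 6 are transcribed from the minus strand. LOC105371457 occupies positions 157652184 to 157660097, 54.1 kb from FCRL4 and 16.4 kb from FCRL3, and overlaps no annotated gene. FCRL6 begins 1980 kb beyond FCRL1, and FCRLA begins 3887 kb beyond it, with FCRLB 7.19 kb from FCRLA. FCRL3 is overlapped by FCRL3-AS1, and FCRL6 by LOC105371464, neither of which was listed in the count table, and whether counting used the strand is not given in the sources used here. Of the 50-base stretches in the GENCODE release 29 transcripts of the 8 family genes, 0 are shared between any of these genes, and LOC105371457 was not part of that search.

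The promoters of FCRL1, FCRL2, FCRL5 and FCRLA and the second listed promoter of FCRL6 hold the same short sequence. The 120 bases before the RefSeq start site are shown for them and for LOC105371457, the genes on which the results turn. All are given in the direction of transcription. Capitals mark ACTTCCT, the reverse complement of AGGAAGT, a core bound by ETS factors such as PU.1.
FCRL5 (chr1:157552516-157552635, minus strand): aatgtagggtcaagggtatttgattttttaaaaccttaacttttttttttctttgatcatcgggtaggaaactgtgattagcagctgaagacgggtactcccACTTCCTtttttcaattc
FCRL2 (chr1:157777133-157777252, minus strand): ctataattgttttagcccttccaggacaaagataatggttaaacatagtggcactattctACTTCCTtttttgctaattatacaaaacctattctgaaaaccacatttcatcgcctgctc
FCRL1 (chr1:157820121-157820240, minus strand): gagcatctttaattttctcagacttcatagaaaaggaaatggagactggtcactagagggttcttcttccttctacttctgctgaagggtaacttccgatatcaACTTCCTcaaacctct
LOC105371457 (chr1:157660098-157660217, minus strand): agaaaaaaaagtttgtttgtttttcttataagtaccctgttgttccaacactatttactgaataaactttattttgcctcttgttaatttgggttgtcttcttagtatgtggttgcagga
FCRLA (chr1:161707109-161707228, plus strand): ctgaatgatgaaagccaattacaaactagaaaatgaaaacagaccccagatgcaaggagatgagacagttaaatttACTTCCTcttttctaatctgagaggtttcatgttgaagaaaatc
FCRL6 (chr1:159802240-159802359, plus strand): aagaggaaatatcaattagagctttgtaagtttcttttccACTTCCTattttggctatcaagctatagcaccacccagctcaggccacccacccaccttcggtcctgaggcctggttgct
Over 300 bases around the start site (250 before and 50 after), the core AGGAAGT on either strand occurred in FCRL5 (first base at −151 and −18 from the start site), FCRL2 (−60), FCRL1 (−217 and −16), FCRLA (−44) and the second of the FCRL6 promoters (−80). It was absent from the windows of FCRL3, FCRL4, FCRLB, LOC105371457 and the first FCRL6 promoter. Of 27305 promoters of this length, 1 per gene, 8.31% hold it, and the motif was chosen after these sequences had been seen. In the first listed promoter, 4 of the 8 family genes hold it. The interferon response element GAAANNGAAA was found once in FCRL1 and once in FCRLA (3.65% of all promoters), the ETS-IRF composite GGAANNGAAA once in the second FCRL6 promoter directly before its core (2.84%), and the octamer ATTTGCAT once in FCRLB (1.80%). The NF-κB sequence GGGANNTTCC (1.63%) and the E-box CACGTG (7.43%) occurred in none of the windows. These are matches of letters in a window and do not show binding. FCRLA and FCRL1 both hold the ETS core and the interferon response element. The part of these sequences in the levels of the genes was not tested.

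The genes of the cluster that were expressed were higher after PRKCN knockdown, whereas FCRLA, and FCRL6 outside the chosen set, were lower. Of the 7 members, 5 passed the filter on low counts, and FCRL3 and FCRLB did not. Of these 5, FCRL1, FCRL2, FCRL5 and LOC105371457 lay beyond a log2 fold change of 0.58 upward (4 genes) and FCRLA beyond it downward (1 gene), while 7.93% of the 13971 genes tested lay beyond it upward and 12.2% downward. In these 4 genes every shPRKCN library was above every shNT library and in FCRLA every one was below, which held for 29% and 29.8% of tested genes upward and downward. Because the members were listed with these differences known, nothing is read from the counts. In bulk RNA, fewer cells with a transcript and less transcript per cell cannot be told apart.

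**Figure D1:**
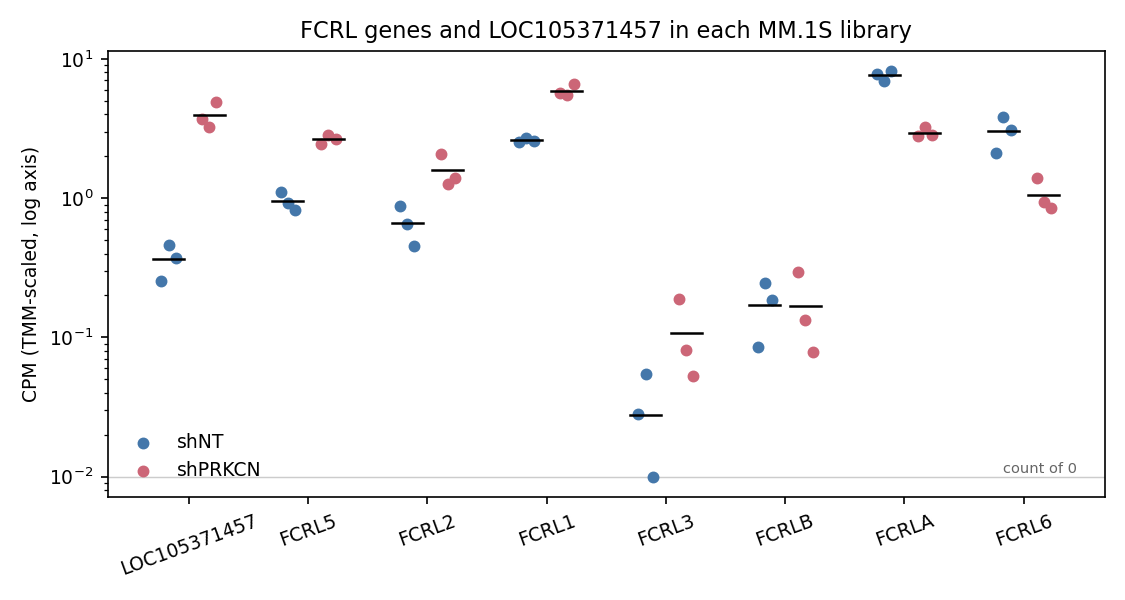
Level of each FCRL gene and of LOC105371457 in every library (CPM on TMM-scaled library sizes, logarithmic axis), with blue points for the 3 shNT and red points for the 3 shPRKCN libraries and a black line at each group mean. The groups are apart for LOC105371457, FCRL5, FCRL2, FCRL1, FCRLA and FCRL6, and overlap for FCRL3 and FCRLB, and the point on the grey line is a count of 0.

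LOC105371457 differed most. It had 9, 17 and 14 counts in shNT cells and 138, 120 and 186 counts in shPRKCN cells. The lowest shPRKCN library thus stood far above the highest shNT library, although all shNT values rest on few reads and its shNT libraries alone would not have passed the filter on low counts. Its mean level was 0.364 ± 0.104 CPM (SD, n = 3) in shNT and 3.94 ± 0.861 CPM (SD, n = 3) in shPRKCN cells, 10.8-fold higher, with a fitted log2 fold change of 3.42 and a standard error (SE) of 0.273. Leaving out single libraries kept the log2 fold change between 3.23 and 3.63. LOC105371457 is annotated as a long noncoding RNA of unknown function, and the gene length behind its deposited FPKM was 1017 bases.

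FCRL5, the receptor for IgG on plasma cells, had 39, 34 and 31 counts in shNT cells and 92, 106 and 101 counts in shPRKCN cells. The libraries of each group lay close together and the groups did not overlap. The mean rose from 0.952 ± 0.140 to 2.66 ± 0.194 CPM (SD, n = 3 per group), 2.79-fold, with a log2 fold change of 1.48 (SE 0.249) that stayed between 1.39 and 1.60 without any single library. FCRL1, the activating receptor at the opposite end of the cluster, had 90, 100 and 97 counts against 212, 203 and 252 counts. Its shNT libraries were the most uniform of the family, and the shPRKCN libraries stood 2.26-fold above them on average. In CPM it went from 2.62 ± 0.0891 to 5.92 ± 0.625 (SD, n = 3 in each group), with a log2 fold change of 1.18 (SE 0.157).

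FCRL2, an inhibitory receptor of memory B cells, had 31, 24 and 17 counts in shNT cells and 78, 47 and 53 counts in shPRKCN cells. Here the spread within each group was wide and the first shPRKCN library was well above the other two. The mean CPM was 0.662 ± 0.212 in shNT and 1.58 ± 0.443 in shPRKCN cells (SD, n = 3 per group), and the log2 fold change was 1.26 (SE 0.321), between 1.01 and 1.51 with single libraries left out. FCRL3, between FCRL2 and LOC105371457, was close to undetected, with 1, 2 and 0 counts against 7, 3 and 2 counts. Summed over libraries, 3 counts stood against 12, of which 7 came from shPRKCN 1, too few for a fold to be read. FCRL4 had 0 counts in every shNT library and 1, 0 and 1 counts in the shPRKCN libraries, under the floor of 3 counts (0.0810 CPM) in each library, so that no fold is given. FCRL3 and FCRL4, the family genes on either side of LOC105371457, were thus scarcely detected in the libraries in which LOC105371457 had its highest counts.

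FCRLA, the intracellular member that binds immunoglobulin inside B cells, was the most abundant FCRL gene of shNT cells and decreased. It had 276, 253 and 306 counts in shNT cells and 104, 120 and 108 counts in shPRKCN cells. The groups were wide apart, and the 3 shPRKCN libraries lay close together. Its mean fell from 7.62 ± 0.667 to 2.95 ± 0.240 CPM (SD, n = 3 per group), to 38.7% of the control, with a log2 fold change of −1.37 (SE 0.142) that ran from −1.44 to −1.31 without single libraries. FCRLB, its neighbour and closest relative, had 3, 9 and 7 counts against 11, 5 and 3 counts. The groups overlapped, and the summed counts were 19 in each group, too few for a fold to be read.

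FCRL6, which was not among the chosen genes, decreased as well. It had 75, 141 and 115 counts in shNT cells and 52, 35 and 32 counts in shPRKCN cells. No shPRKCN library reached the lowest shNT library, and the shNT libraries differed widely among themselves. The log2 fold change was −1.51 (SE 0.247, edgeR quasi-likelihood, Benjamini-Hochberg adjusted p = 3.1e-07 over all 13971 genes), between −1.75 and −1.29 with single libraries left out. Of the 11 listed T and NK cell markers 3 were tested, of which CD3E was called higher, GNLY was called lower with at most 24 counts in any library, and CD2 had a log2 fold change of −0.39 without a call. Of the markers too low to be tested, NCR1 had 0.226 CPM in shNT and 0.124 CPM in shPRKCN cells. CD8A had 0.145 and 0.160 CPM and PRF1 had 0.0363 and 0.0534 CPM, in the other direction, and KLRD1 had at most 1 count. Their part in the level of FCRL6 was not tested.

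Levels of different genes were compared per length, as deposited FPKM. In shNT cells FCRLA stood first with 3.27 ± 0.282 FPKM (SD, n = 3), above 42.5% of tested genes, followed by FCRL6 with 1.40 ± 0.401 FPKM. LOC105371457 (0.355 ± 0.102 FPKM) and FCRL1 (0.344 ± 0.0124 FPKM) overlapped each other and lay above FCRL2 (0.222 ± 0.0710 FPKM) and FCRL5 (0.175 ± 0.0255 FPKM), which also overlapped. FCRLB (0.0845 FPKM), FCRL3 (0.00575 FPKM) and FCRL4 (0 FPKM) came last. In shPRKCN cells LOC105371457 stood first with 3.90 ± 0.885 FPKM, above 46.1% of tested genes, then FCRLA with 1.28 ± 0.0906 and FCRL1 with 0.790 ± 0.0896 FPKM. FCRL2 (0.540 ± 0.154 FPKM), FCRL6 (0.499 ± 0.140 FPKM) and FCRL5 (0.494 ± 0.0317 FPKM) followed, and their libraries overlapped. FCRL5 was above 17.8% of tested genes there, against 8.14% in shNT cells.

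The 8 FCRL family genes together took 515, 563 and 573 counts in the shNT and 557, 519 and 552 counts in the shPRKCN libraries. These summed counts overlapped between the groups. Summed per length, the family was lower in shPRKCN libraries, with 5.21, 5.62 and 5.67 FPKM in shNT against 4.01, 3.57 and 3.57 FPKM. The makeup of the family did not overlap either. The 5 genes of the cluster held 16.1%, 13.5% and 11.4% of the summed family FPKM of shNT cells and 49.5%, 47.1% and 52.8% of that of shPRKCN cells. Per length the cluster went from 0.747 ± 0.0968 to 1.85 ± 0.153 FPKM, whereas FCRLA and FCRL6 together went from 4.67 ± 0.306 to 1.78 ± 0.122 FPKM (SD, n = 3 in each group). Within the cluster the proportions overlapped between the groups. FCRL5 stood at 0.445 to 0.604 of FCRL1 in shNT and at 0.559 to 0.728 of it in shPRKCN libraries, and FCRL2 at 0.448 to 0.880 and 0.537 to 0.940. The level of LOC105371457 relative to FCRL5 was 1.23 to 2.66 in shNT and 6.03 to 9.81 in shPRKCN libraries, without overlap.

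**Figure D2:**
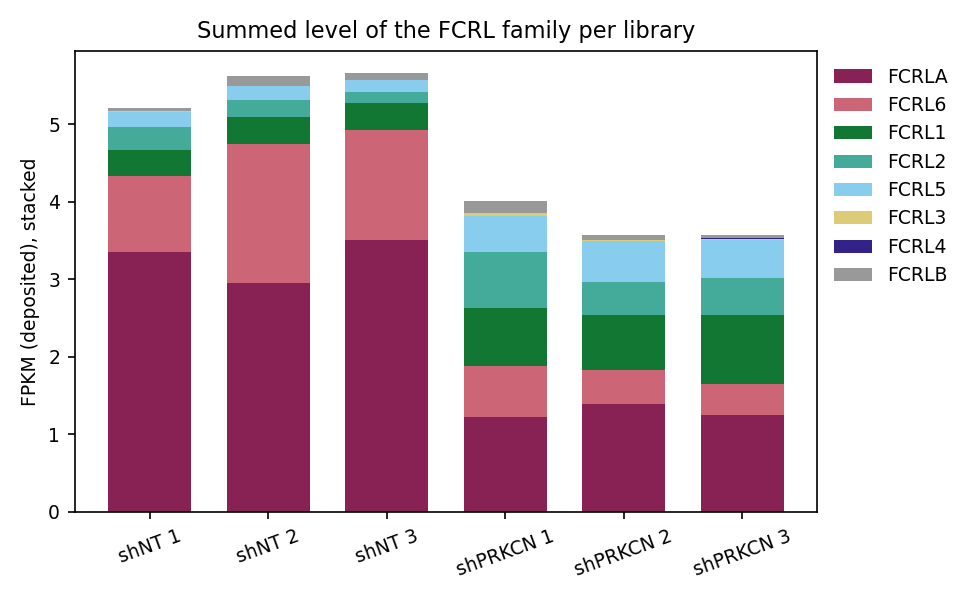
Deposited FPKM of the 8 FCRL family genes, stacked for each of the 6 libraries on an axis that starts at 0. FCRLA and FCRL6 make up most of the bar in the 3 shNT libraries, and the cluster genes FCRL1, FCRL2 and FCRL5 make up 47.1% to 52.8% of it, with FCRL3 and FCRL4, in the 3 shPRKCN libraries.

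Genes around the cluster were then tested to see whether neighbours outside the family differed too. Within 1 Mb of the cluster RefSeq holds 82 genes other than the members, of which 30 were listed, FCRL4 included, and 18 tested. Of these 18, 5 were called higher and 2 lower (adjusted p under 0.05 and log2 fold change beyond 0.58), and the median log2 fold change was 0.18. Over all genes tested 6.15% were called higher and 10.6% lower, and their median log2 fold change was 0.0012. CD5L, a secreted scavenger receptor protein whose gene begins 6.95 kb beyond FCRL1, had 39, 48 and 29 counts in shNT and 79, 97 and 90 counts in shPRKCN libraries. It was higher in 3 of 3 shPRKCN libraries, with a log2 fold change of 1.15 (SE 0.254, edgeR quasi-likelihood adjusted p = 8.5e-05). CD1A, a lipid antigen presenting molecule 428 kb beyond the cluster, had 8, 5 and 11 counts against 52, 46 and 35 counts, a log2 fold change of 2.42 (SE 0.423, edgeR adjusted p = 1.3e-06). No other gene on that side was tested, and CD1A passed the filter on low counts only through its shPRKCN libraries. The related CD1C, CD1D and CD1E had at most 2 counts in any library.

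On the side of FCRL5, 16 neighbours were tested, of which 3 were called higher and 2 lower. The long noncoding RNA LOC101928202, 202 kb from the cluster, had 5, 2 and 2 counts in shNT and 18, 29 and 19 counts in shPRKCN libraries, a log2 fold change of 2.78 (SE 0.591, edgeR quasi-likelihood adjusted p = 4.8e-05). Like CD1A, it passed the filter only through its shPRKCN libraries. Between it and 697 kb from the cluster lay 3 tested genes with no call, namely LOC107985211 with a log2 fold change of 0.15, the repressor gene ETV3 with −0.18 and the exchange factor gene ARHGEF11 with 0.56, just inside the limit. SH2D2A, a T cell adaptor, was higher (log2 fold change 0.98, SE 0.141), as was NES, the intermediate filament nestin (0.98, SE 0.209). IQGAP3, a scaffold of dividing cells, was lower (−0.998, SE 0.070). BCAN, a proteoglycan of the brain, had a log2 fold change of −1.12 with an edgeR adjusted p of 0.025, and was no longer called, with an adjusted p of 0.053 to 0.148, without shNT 2, shNT 3, shPRKCN 1 or shPRKCN 3. The genes called higher thus lay among 11 neighbours on this side that were not called.

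Around FCRLA and FCRLB the same rule gave 115 RefSeq genes, of which 45 were listed and 32 tested. Of these 32, 0 were called higher and 5 lower (median log2 fold change −0.054), against 6.15% and 10.6% of all genes tested. Upward, 4 of the 32 had an unadjusted p under 0.05 in edgeR, of which 1, FCER1G, lay beyond the fold limit. DESeq2 called 1 listed neighbour higher, SH2D1B, which did not pass the filter on low counts and is not among the 32. SH2D1B had at most 28 counts in any library and was named after its values were seen. DDR2, a collagen receptor kinase, was lowest with a log2 fold change of −1.38 (SE 0.127). SLAMF7, a plasma cell surface protein, fell from 426 to 218 CPM (log2 fold change −0.97, SE 0.034), and UHMK1, a kinase of splicing factors, from 375 to 196 CPM (−0.94, SE 0.038). UAP1, an enzyme of the hexosamine pathway, had −0.66 (SE 0.042). FCGR2A and FCGR2B, the classical IgG receptors in this neighbourhood, had at most 10 counts in any library and were not tested.

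Other receptors for immunoglobulin were next compared, to set the FCRL genes beside their wider family. Of 19 genes 10 were listed and 5 tested, with 3 called higher and 0 lower by edgeR (6.15% and 10.6% of all genes tested). Downward, 0 had an unadjusted p under 0.05 and DESeq2 called 0. FCMR, the receptor for IgM, was by far the most abundant, with 9416, 9735 and 9770 counts in shNT and 19698, 21103 and 20363 counts in shPRKCN libraries. It was 2.06-fold higher, with a log2 fold change of 1.04 (SE 0.034, edgeR quasi-likelihood adjusted p = 1.4e-37). PIGR, which carries IgA and IgM across epithelia, had 11, 2 and 11 counts against 32, 39 and 26 counts, and FCGBP, a mucus protein that binds IgG, had 33, 38 and 40 counts against 114, 134 and 125 counts. Their log2 fold changes were 1.96 (SE 0.462, edgeR adjusted p = 0.00022) and 1.71 (SE 0.227, edgeR adjusted p = 1.5e-09). PIGR passed the filter on low counts only through its shPRKCN libraries. TRIM21, the cytosolic antibody receptor, had a log2 fold change of 0.17 (SE 0.058), under the limit. FCER1G, the common signalling chain of Fc receptors, had 0.82 (SE 0.373, edgeR adjusted p = 0.057), and was not called. It was called in 5 alternatives, namely without shNT 1 (log2 fold change 1.63), without shPRKCN 2 (0.97), with the replicate number as a block (0.92), without a count filter (0.83) and with at least 10 counts in every library (0.82). The receptors FCGRT, FCER1A and FCAR had at most 6 counts in any library.

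The proteins that FCRL tails work with were mostly expressed and within the fold limit. Of 36 partners 34 were listed and 30 tested, with a median of 0.026 on the log2 fold scale. Of these 30, 3 were called higher and 2 lower, against 6.15% and 10.6% of all genes tested. CR2, the complement receptor of the B cell coreceptor, was highest, with 935, 883 and 924 counts in shNT against 2118, 2271 and 2207 counts in shPRKCN libraries and a log2 fold change of 1.23 (SE 0.055). CD79B, a signalling chain of the B cell receptor, had 0.72 (SE 0.063) and INPP5D, the inositol phosphatase SHIP that inhibitory receptors recruit, 0.61 (SE 0.040). CD79A, the partner chain of CD79B, went the other way with −0.63 (SE 0.302, edgeR quasi-likelihood adjusted p = 0.071) and was not called. PRKCB, a protein kinase C of the same pathway, was lower with −0.88 (SE 0.120). CD72, an inhibitory coreceptor with at most 20 counts in any library, had −1.86 (SE 0.566, edgeR quasi-likelihood adjusted p = 0.004), and an adjusted p of 0.053 without shPRKCN 2. It passed the filter on low counts only through its shNT libraries. The phosphatases PTPN6 (log2 fold change −0.34) and PTPN11 (−0.033) and the kinases LYN (0.29) and SYK (0.14) lay inside the fold limit. Of these, PTPN6, LYN and SYK had an edgeR quasi-likelihood adjusted p under 0.05, and PTPN11 did not.

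Known FCRL ligands were examined as well. FCRL5 binds IgG, FCRL3 and FCRL4 bind forms of IgA and FCRL6 binds HLA-DR. The 14 immunoglobulin constant region genes of the list were not among the listed symbols and are not analysed here. All 7 MHC class II genes were listed, 5 were tested and 4 were called lower, namely HLA-DRA, HLA-DRB1, HLA-DPB1 and HLA-DQB1. Over all genes tested, 10.6% were called lower. HLA-DQB1 had 26, 41 and 28 counts in shNT and 3, 12 and 13 counts in shPRKCN libraries. It passed the filter on low counts only through its shNT libraries. HLA-DRA, the alpha chain of HLA-DR, fell from 457 to 252 CPM (log2 fold change −0.86, SE 0.034), and HLA-DRB1 had −1.13 (SE 0.093). HLA-DPA1 had −0.54 and lay inside the limit. PIGR, whose shed part belongs to secretory IgA, was the 1 gene of the list called higher. It passed the filter on low counts only through its shPRKCN libraries. HLA-DRB genes are near-identical copies, so the division of reads among them is uncertain. JCHAIN, which joins polymeric IgA and IgM, had 5358 CPM in shNT and 5412 CPM in shPRKCN cells, a log2 fold change of 0.015 (SE 0.030).

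FCRL5 and FCRL4 also mark atypical memory B cells, and genes of that state went both ways, with more called lower than higher. Of 30 genes 26 were listed and 13 tested, with 2 called higher and 5 lower, against 6.15% and 10.6% of all genes tested. The median log2 fold change of the 13 was −0.44. CD86, a costimulatory ligand, and BATF, a transcription factor, had a log2 fold change of 0.70 each (SE 0.067 and 0.185). TFEC (−2.26, SE 0.378), CD72, BHLHE40 (−1.49, SE 0.050), NR4A2 (−1.43, SE 0.382) and RUNX2 (−1.29, SE 0.042) were lower. TFEC and CD72 passed the filter on low counts only through their shNT libraries. TBX21, the factor T-bet that defines the state, had at most 1 count in any library. Of 23 B cell markers 20 were listed and 15 tested, with 3 called higher (CR2, CD79B and SPI1) and 2 called lower (CD72 and CIITA). SPI1, which encodes PU.1, had 270, 254 and 250 counts in shNT and 403, 400 and 454 counts in shPRKCN libraries, a log2 fold change of 0.66 (SE 0.107). CIITA, the activator of MHC class II genes, had −1.32 (SE 0.054). SPIB, a relative of SPI1, had a log2 fold change of 0.21 (SE 0.436). Their part in the levels of the FCRL genes was not tested.

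Among the genes with the profile most like FCRL5 over the 6 libraries, by Euclidean distance between centred log2 CPM, were WIPF3 (distance 0.205), CCDC65 (0.273), GJA1 (0.295) and GRHL3 (0.300). WIPF3 had 141, 123 and 112 counts in shNT and 379, 381 and 387 counts in shPRKCN libraries. For LOC105371457 the nearest were IFI44L (0.474), CNR2 (0.879), C1orf127 (0.960), CD180 (0.988) and SLC7A8 (1.26). IFI44L had 6, 15 and 12 counts against 107, 134 and 164 counts, and CNR2, a cannabinoid receptor of B cells, 9, 14 and 9 counts against 62, 83 and 109 counts. No FCRL gene was among the 5 nearest of either, and since the 6 libraries form 2 groups, genes with a difference of similar size lie close by this measure.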

How the data were processed

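RNA sequencing of 6 MM.1S libraries was analysed, 3 per group, grouped by the labels. The authors deposited gene counts, which were used as given, and FPKM values, which follow from those counts, the library total and 1 length per gene. FastQC, HISAT2, StringTie and GRCh38.p14 stand in the submitters' processing notes, and the counting program, its annotation and its use of strand are not given in the sources used here. Library totals of 35625564 to 37730003 counts make 3 counts about 0.0810 CPM.

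Counts were fitted with edgeR 4.0.16 in R 4.3.3 (TMM, filterByExpr, quasi-likelihood test, Benjamini-Hochberg adjustment over 13971 genes). Calls required an adjusted p under 0.05 together with a log2 fold change past 0.58. DESeq2 1.42.0, limma 3.58.1 with FPKM as log2 after adding 1 or 0.1, other scalings and filters, a replicate block and leaving out single libraries were alternatives, and the fit was tested on simulated data. Libraries of a group differed beyond sampling noise (chi-square per degree of freedom 3.46 to 4.98). Members and lists were chosen with earlier results of these data known. Named were the FCRL genes, PRKCN, up to 4 called genes per list and direction with the largest change (all genes of lists with fewer than 8 tested), and the 5 nearest profiles, of which 1 is not reported here. Genes named beyond this rule (GNLY, CD3E, CD2, NCR1, CD8A, PRF1, CD68, IRF4, XBP1, TNFRSF17, TXNDC5, POU2AF1, NES, ETV3, LOC107985211, ARHGEF11, CD79A, PTPN6, PTPN11, LYN, SYK, RUNX2, SPIB and those with few counts) were chosen after their values were seen. Positions and promoters are from RefSeq (GRCh38.p14), in which all 9 genes matched.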

Additional observations from a re-analysis of the deposited data

How the results depend on the processing

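Under log2(FPKM + 1) in limma, where the added 1 exceeds most FCRL levels and so shrinks the fold changes, 2 members instead of 5 lay beyond the fold limit and 968 genes instead of 2334 were called (317 higher and 651 lower). There the log2 fold change was 0.41 for FCRL1, 0.33 for FCRL2, 0.35 for FCRL5, 1.84 for LOC105371457 and −0.90 for FCRLA, and calls numbered 2 among neighbours of the cluster, 3 among neighbours of FCRLA and FCRLB, 1 among Fc and immunoglobulin receptors and 3 each among signalling partners, ligands, atypical memory B cell genes and B cell markers. With at least 10 counts in every library, which leaves fewer genes to test, 4 members lay beyond the fold limit. LOC105371457, with 9 counts in shNT 1, was no longer fitted there. Calls then numbered 4 among cluster neighbours (7 in the main analysis) and 3 among ligands (5). Without a count filter, 6 members lay beyond the limit. No direction reversed in any alternative. Leaving out single libraries kept 5 members beyond the limit, 6 to 7 calls among cluster neighbours and 2264 to 2313 calls among all genes. Of the values for single genes under the alternatives, 700 kept their direction and call, 25 lost a call, 5 gained one and 7 moved beyond the spread between libraries.

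With the replicate number as a block, 854 genes were called higher and 1463 lower, against 859 and 1475 without it, and 5 members lay beyond the limit. Deviations of same-numbered libraries correlated between −0.042 and 0.0038, and 0 of 6 libraries correlated best with their own number, so the pairing was not used. Most members had under 110 counts per shNT library, which limits FCRL2 most and leaves FCRL3, FCRL4 and FCRLB without a test.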
